A study of Homo sapiens with 13 samples.

Results

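RSF1 without its UAB region was compared with a control vector in SKOV3, a human ovarian carcinoma line with ERBB2 amplification that was set up from ascites. The comparison rests on 6 of the series' 13 libraries of poly-A RNA, namely 3 that the labels call RSF1delUAB overexpression and 3 that they call control vector, and covers all genes in the deposited count table. A further 3 SKOV3 libraries with full-length RSF1 entered the same fit and are shown beside them. No treatment is named for any SKOV3 group. The labels do not give the vector's promoter, whether a line is a pool or a clone, or whether replicates came from separate cultures, so p-values measure the spread between these libraries, which may be technical.

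RSF1 is a histone chaperone that joins the ATPase SMARCA5 in the RSF remodelling complex, which spaces nucleosomes. Through the UAB region it binds histone H2A carrying ubiquitin, the mark laid down by Polycomb repressive complex 1 on genes that are held silent. Whether the protein without that region still binds chromatin was not measured here. The libraries described show which transcripts differed from control when its construct was present.

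Levels are CPM, read counts scaled with TMM to a library size of 1000000, given for replicates 1, 2 and 3 in that order or as mean ± SD (n = 3 libraries). "Rose" and "fell" mean an adjusted p under 0.05 in edgeR's quasi-likelihood test. By that rule 5774 of 16735 tested genes rose (34.5%) and 5376 fell (32.1%), with a median log2 fold change of 0.02. At least 2-fold rises made up 15.7% of tested genes and at least 2-fold falls 9.88%. These shares are the background against which each gene list below is read. All 3 libraries of each group lay apart, whatever the test, for 37.3% of tested genes that were higher and 35.6% that were lower in RSF1delUAB. Apart from RSF1, SMARCA5, TXNIP and markers, the naming rule given under processing took only genes whose groups did not overlap. For them that separation is a condition of choice and no further result.

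RSF1 itself checks the labels. It stood at 42.2, 47.5 and 42.2 CPM in control and at 459, 496 and 509 CPM in RSF1delUAB libraries, so every RSF1delUAB library lay above every control library (log2 fold change 3.47, SE 0.0851, edgeR adjusted p = 1.09e-17). Counts per gene cannot tell the construct's reads from endogenous ones. SMARCA5, named for being RSF1's partner, fell from 217 ± 10.8 to 119 ± 8.27 CPM. It lies on 4q, an arm with a median log2 fold change of -0.73.

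Libraries held 15488615 to 18748009 counts in the 6 libraries compared. The carcinoma label was checked against 19 markers, of which 13 had a mean of at least 5 CPM in control and 14 in RSF1delUAB. ERBB2 stood at 8429.9 ± 358 CPM in control and 7567 ± 254 CPM in RSF1delUAB. KRT8 stood at 335 ± 12 and 711 ± 23.8 CPM, and PAX8 at 506 ± 11.4 and 280.1 ± 7.63 CPM. CDH1, WT1, EMX2, CLDN3 and MUC16 stayed below 5 CPM in both groups. MUC16 stood at 0.0662, 0.133 and 0 CPM in control and had 0 counts in RSF1delUAB. Summed over 16 immune markers the libraries held 1.32 to 1.87 CPM in control and 2.29 to 2.48 CPM in RSF1delUAB, with CD3D, CD3E, MS4A1, FCGR3A and TYROBP at 0 counts in both. Over 10 endothelial markers the sums were 5.49 to 8.10 and 1.35 to 2.55 CPM. Over 8 mesothelial markers they were 28.3 to 29.4 and 22.6 to 23.8 CPM. Fibroblast markers differed: 15 of them summed to 26.3 to 28 CPM in control and 506 to 516 CPM in RSF1delUAB. PDGFRB was at 0 counts in both groups and POSTN in RSF1delUAB. FBLN1, FBLN2, MFAP5 and LUM held most of the RSF1delUAB sum, and COL3A1, THY1 and FAP stood below 1 CPM in each of the 6 libraries compared. Of the 12 tested markers 8 rose and 2 fell, or 1 without control replicate 2 or with the arm medians below removed. The falls also numbered 1 with limma-voom, with only the 6 libraries compared in the fit and with a stricter filter on level. In bulk RNA more cells of a type and more RNA per cell cannot be told apart, and the part of such cells in the results below was not tested.

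Whole chromosome arms moved with the groups. Of 41 arms, 4 had a median log2 fold change above 0.5 (22q at 0.95, 14q at 0.56, 19q at 0.52 and 5p at 0.52) and 6 lay below -0.5 (4q, 4p at -0.71, 13q at -0.70, 18q at -0.59, 3p at -0.55 and 1q at -0.53). On 22q 315 of 388 tested genes rose and 10 fell. Full-length RSF1 libraries differed from control in the same direction on each arm named, with medians such as 0.94 on 22q and -0.69 on 4q. Between RSF1delUAB and RSF1 the medians of these arms lay between -0.18 (4p) and 0.06 (5p). The arm shifts are thus not particular to RSF1delUAB. DNA copy number was not measured. Refitting with each arm's median taken out left 196 of the 199 genes named here with the same direction and call. The exceptions were the mineralocorticoid receptor NR3C2 on 4q, whose log2 fold change of -1.04 became -0.31 (adjusted p = 0.0971), SMARCA5, at -0.13 (0.0929), and ERBB2 on 17q, at -0.39 (8.83e-05) from a value that had not passed. Some genes that kept their call were under 2-fold in this refit, among them NFKB1 at -0.34 and PPARG at -0.55 log2 units. Counts of list members that this refit moved by more than 1.5 times are given beside the list.

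**Figure D1:**
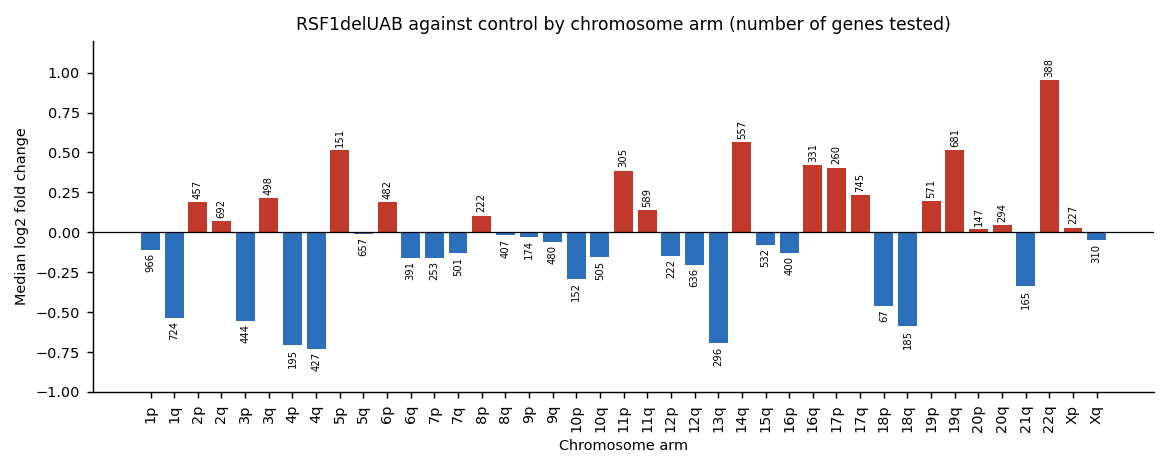
Median log2 fold change of RSF1delUAB against control for the tested genes of each chromosome arm with at least 20 tested genes. Bars start at 0, and numbers give the genes tested per arm. The arm 22q stands highest at 0.95 and 4q lowest at -0.73.

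Apart from the mitochondrial ribosomal RNAs MT-RNR2 and MT-RNR1, the 10 largest rises in mean CPM, a measure that does not correct for gene length, were mostly secreted and surface products. Fibronectin, FN1 (ENSG00000115414, chromosome 2, 215360440 to 215436073 on GRCh38), a matrix protein bound by integrins, stood at 335, 301 and 291 CPM in control and 2926, 3069 and 3239.8 CPM in RSF1delUAB libraries. The lowest RSF1delUAB library lay far above the highest control library (log2 fold change 3.32, SE 0.124, edgeR adjusted p = 6.3e-15). MMP1 (ENSG00000196611, chromosome 11, 102789401 to 102798160), the interstitial collagenase, went from 36, 35.1 and 35.1 to 955, 947 and 961 CPM, a log2 fold change of 4.75 (SE 0.0751). Complement C3 went from 118, 115 and 101 to 987, 1022 and 1034 CPM (3.19 log2 units). None of these groups overlapped, which the naming rule required. The other genes of this class were the secreted growth regulator GRN (647 ± 46.2 to 2152 ± 85.7 CPM), the galectin LGALS1 (474 ± 30.3 to 1151 ± 77.6 CPM), the follistatin-like glycoprotein FSTL1 (209 ± 4.33 to 787 ± 8.83 CPM), the antigen-presenting HLA-C and the antiviral IFITM3. LGALS1 lies on 22q, and its log2 fold change of 1.28 became 0.33 with the arm median removed. The share of counts on mitochondrial genes was 3.51 to 3.59% in control libraries and 4.39 to 5.21% in RSF1delUAB libraries.

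The 10 largest falls in mean CPM included structural and calcium-binding proteins. The cytolinker PLEC, which ties intermediate filaments to hemidesmosomes, went from 2300.3, 2392 and 2145 to 714, 688 and 722 CPM, and lamin A/C, LMNA, from 1267 ± 61.3 to 460.1 ± 22.1 CPM. S100A6 went from 1936 ± 106 to 827 ± 71.6 CPM and S100A16 from 1208 ± 23.2 to 355 ± 11.9 CPM. LMNA, S100A6 and S100A16 lie on 1q, with log2 fold changes of -1.46, -1.23 and -1.77. With the arm median removed these were -0.93, -0.69 and -1.23. The nucleic acid-binding protein YBX1 fell from 1765 ± 26.2 to 678 ± 27.2 CPM. RESF1, a regulator of retroelement silencing, fell from 2834 ± 89.5 to 1156 ± 48.1 CPM, and the phosphatase inhibitor PPP1R1B from 1383 ± 54.8 to 389.7 ± 21.6 CPM. In each of these genes all control libraries lay above all RSF1delUAB libraries, as the naming rule required.

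**Figure D2:**
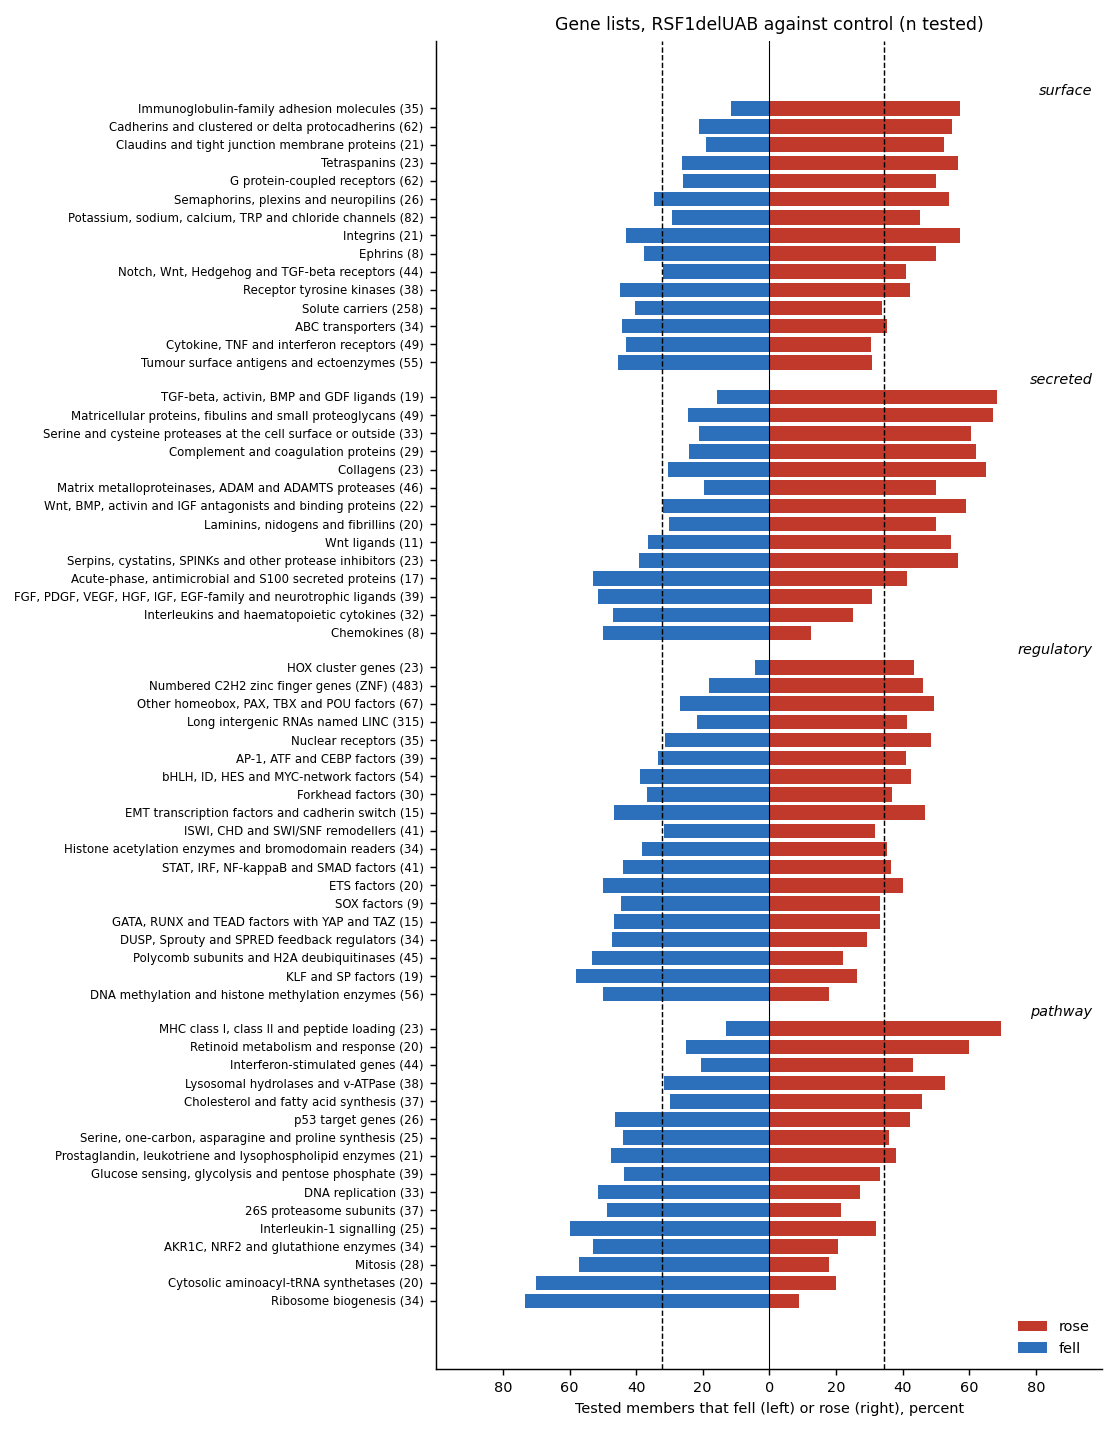
Share of tested members that rose (right, percent) and fell (left, percent) in RSF1delUAB against control for each gene list, with the number tested in brackets and lists grouped by role. Dashed lines mark the shares over all tested genes, 34.5% risen and 32.1% fallen; ribosome biogenesis reaches 73.5% fallen.

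Several genes known from hemidesmosomes and their laminin ligands were among the falls. They come from the lists of laminins, collagens and integrins and were not counted as a list of their own. Hemidesmosomes anchor epithelial cells to laminins, with chains such as LAMA3 and LAMB3, through the integrin pair ITGA6 and ITGB4 and the transmembrane collagen COL17A1. LAMA3 stood at 466, 477 and 453 CPM in control and at 68.2, 75.7 and 74.7 CPM in RSF1delUAB libraries, a fold change of -2.67 on the log2 scale. LAMB3 went from 586, 596 and 528 to 112, 110.5 and 114 CPM. For both chains the highest RSF1delUAB library was below the lowest control library. COL17A1 went from 166, 179 and 159 to 4.31, 3.81 and 4.93 CPM, a log2 fold change of -5.28 (SE 0.124, edgeR adjusted p = 6.54e-18). ITGB4 went from 179.8, 172 and 165 to 37.8, 37.4 and 37.3 CPM and ITGA6 from 513 ± 14.5 to 197 ± 9.15 CPM. LAMA3 lies on 18q and LAMB3 on 1q, arms with negative medians. With the arm medians removed their log2 fold changes were -2.09 and -1.81.

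Other integrins moved in both directions. Of 21 tested integrin subunits 12 rose (57.1%), 9 fell (42.9%) and 0 did not pass. ITGB3, the beta chain of the vitronectin receptor, stood at 4.37, 4.78 and 5.36 CPM in control and 91, 87.9 and 92 CPM in RSF1delUAB, and these ranges lay far apart (log2 fold change 4.22). ITGB6, a subunit of a receptor that activates latent TGF-beta, rose from 3.14 ± 1.42 to 16.5 ± 0.513 CPM. ITGA4 and the collagen receptor chain ITGA1 rose to 25.3 ± 0.877 and 57.6 ± 3.58 CPM, from 4.83 ± 0.859 and 16 ± 0.825 CPM. The fibronectin receptor chain ITGA5 fell from 422 ± 29 to 137 ± 5.15 CPM, while its ligand FN1 rose.

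Adhesion molecules of the immunoglobulin family leaned upward: 20 of 35 rose (57.1%, beside 34.5% of all tested genes) and 4 fell. The count that fell became 7 when full-length RSF1 replicate 1 was left out of the shared fit. It was 8 of 34 tested when only the 6 libraries compared were fitted. BCAM, a laminin receptor, went from 3.44, 2.52 and 2.91 to 89, 83.8 and 89.7 CPM, and CADM1, a homophilic adhesion molecule, from 1.06, 0.995 and 0.775 to 60.9, 62.7 and 58.6 CPM. MCAM had 0 counts in control and 7.10 ± 0.992 CPM in RSF1delUAB, at least 108-fold higher. Fold floors for genes at 0 counts take 3 counts over the group, and they and all counting intervals cover counting error only. Cadherins and protocadherins showed 34 rises and 13 falls among 62 tested. PCDH9 rose from 5.89 ± 0.323 to 49.6 ± 3.51 CPM and CDH13, a cadherin with a lipid anchor, fell from 63.6 ± 4.80 to 11.8 ± 1.08 CPM. Clustered protocadherins share exons, and single members of those clusters are uncertain.

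Tight junction membrane genes counted 11 rises and 4 falls of 21 tested. CLDN2, a pore-forming claudin, rose from 0.198 ± 0.230 to 5.61 ± 0.272 CPM, and CLDN4, a barrier claudin common in ovarian carcinoma, from 10.01 ± 0.849 to 25.4 ± 2.99 CPM. Among tetraspanins 13 of 23 rose and 6 fell. TSPAN18 went from 0.0664 ± 0.115 to 23 ± 1.83 CPM, a ratio of 351 (95% counting interval 119.8 to 1704).

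Receptor tyrosine kinases were called at about the same rate in both directions, with 16 risen and 17 fallen of 38 tested. EPHA2, the receptor for ephrin A ligands, stood at 882, 898 and 840.2 CPM in control and 127, 128 and 132 CPM in RSF1delUAB libraries. Of the ephrin ligands 4 of 8 rose and 3 fell, or 1 with arm medians removed. MET, the receptor of hepatocyte growth factor, went from 339, 322 and 338 to 116, 123 and 128 CPM (log2 fold change -1.44, SE 0.0855), and MST1R, its close relative, from 101 ± 5.46 to 19.6 ± 2.67 CPM. The collagen receptor DDR2 fell from 9.02 ± 1.25 to 0.790 ± 0.476 CPM. FGFR4 rose from 18.8 ± 0.926 to 43.1 ± 4.04 CPM. ERBB2 itself had a log2 fold change of -0.16 (edgeR adjusted p = 0.0619), and was called lower under 6 of 19 alternatives.

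Of cytokine receptors, 15 rose and 21 fell among 49 tested. IL1R1, the signalling receptor of interleukin-1, rose from 10.3, 8.76 and 9.95 to 85.9, 88.7 and 93.4 CPM, and its decoy IL1R2 from 0.418 ± 0.205 to 5.03 ± 0.598 CPM. No control library reached the lowest RSF1delUAB library for either receptor. IL6R, the interleukin-6 receptor, fell from 84.1 ± 2.41 to 16.4 ± 1.88 CPM, and TNFRSF10D, a decoy receptor of the death ligand TRAIL, from 156 ± 3.39 to 27.7 ± 2.33 CPM. TNFSF10, which encodes TRAIL, rose from 1.32, 1.33 and 1.10 to 29.6, 31.6 and 26.5 CPM.

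Developmental receptors split more evenly, with 18 rises and 14 falls of 44. The TGF-beta family receptor ACVRL1 rose from 1.31 ± 0.335 to 20.7 ± 1.10 CPM, the Wnt co-receptor LRP5 from 28.3 ± 0.410 to 86.5 ± 2.47 CPM, and the activin and nodal receptor ACVR1C fell from 7.57 ± 0.722 to 0.995 ± 0.421 CPM. Among G protein-coupled receptors 31 of 62 rose (50%) and 16 fell. LPAR1, a receptor for lysophosphatidic acid, which is abundant in ovarian cancer ascites, stood at 0.397, 0.995 and 0.582 CPM in control and 31, 32.1 and 36.2 CPM in RSF1delUAB. Control libraries thus held little of this transcript and all RSF1delUAB libraries held it (log2 fold change 5.64, SE 0.180). F2RL1, the protease-activated receptor cleaved by trypsin-like proteases, fell from 189 ± 7.12 to 56 ± 1.26 CPM, and the orphan receptor GPRC5A from 94.4 ± 2.82 to 12 ± 1.43 CPM. Guidance receptors and ligands counted 14 rises and 9 falls of 26. NRP1, a co-receptor of semaphorins and VEGF, rose from 62.3 ± 2.12 to 299 ± 9.66 CPM and the secreted semaphorin SEMA3F fell from 157 ± 8.16 to 62.6 ± 3.71 CPM.

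Surface antigens used or studied as antibody targets had 17 rises and 25 falls among 55 tested (45.5% fallen, beside 32.1% of all tested genes). FOLR1, the folate receptor alpha, went from 0.132, 0.0664 and 0.0646 CPM in control to 20.6, 19.9 and 20.5 CPM in RSF1delUAB. CD24, a glycoprotein that engages the macrophage receptor Siglec-10, went from 72.3, 70.9 and 73.5 to 542, 520.3 and 554 CPM. Groups did not overlap for either gene, again a condition of naming. Tissue factor, F3, which starts coagulation, went the other way, from 975, 967 and 1002 to 60.4, 61.2 and 63.1 CPM. THBD, the anticoagulant thrombomodulin, fell as well, from 154 ± 2.45 to 6.42 ± 0.493 CPM. RAET1E and RAET1L, ligands of the NKG2D receptor of natural killer cells, fell from 7.49 ± 0.743 to 1.25 ± 0.577 and from 13.9 ± 1.70 to 0.146 ± 0.150 CPM. RAET1 genes are near-identical in part and are uncertain.

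Transporters moved in both directions. Of 258 tested solute carriers 87 rose (33.7%) and 104 fell (40.3%). SLC16A9, a carnitine transporter, had 0 counts in control and 6.59 ± 0.481 CPM in RSF1delUAB, at least 100-fold higher. SLC7A11, the cystine importer, went from 465, 447 and 475 to 117, 120.0 and 122 CPM (log2 fold change -1.95, SE 0.0895), and the organic anion transporter SLCO4A1 from 199 ± 7.54 to 49.1 ± 3.01 CPM. Ion channels counted 37 rises and 24 falls of 82. The pacemaker channel HCN2 fell from 117 ± 9.12 to 43.2 ± 2.47 CPM and the calcium-activated cation channel TRPM4 rose from 5.71 ± 0.693 to 21.8 ± 2.86 CPM. ABC transporters counted 12 rises and 15 falls of 34. The drug efflux pumps ABCG2 and ABCC2 fell from 12.2 ± 0.422 to 0.962 ± 0.329 CPM and from 13.1 ± 1.13 to 1.195 ± 0.561 CPM, whereas the pump ABCC3 rose from 73 ± 2.12 to 178 ± 4.18 CPM.

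**Figure D3:**
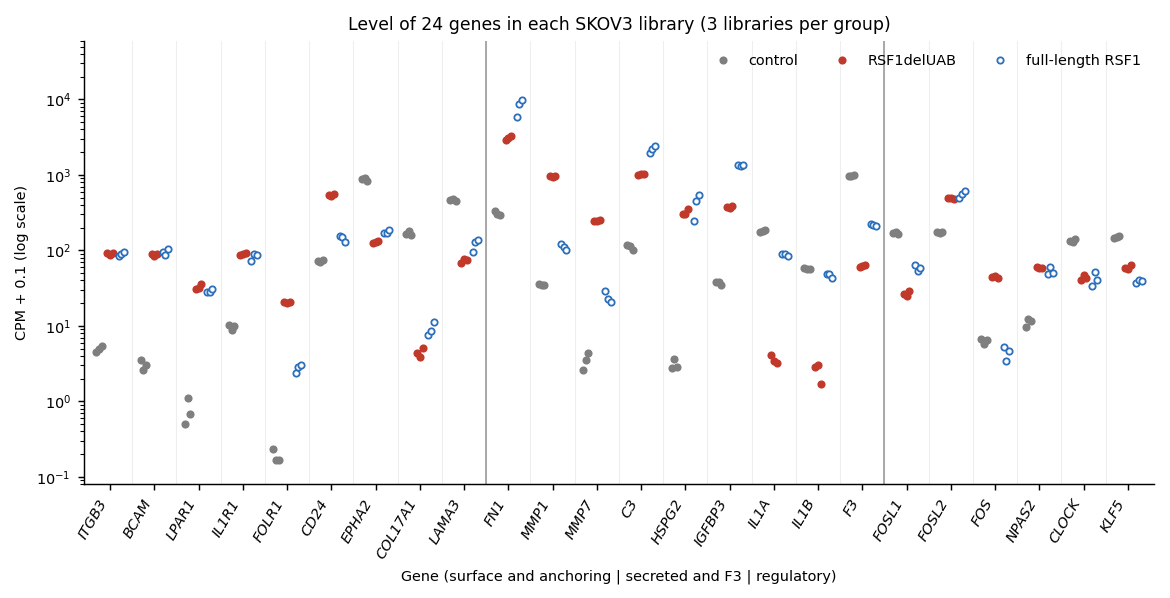
Level (CPM + 0.1, log scale) of 24 surface, secreted and regulatory genes in each of the 9 SKOV3 libraries, 3 per group, 1 point per library. In the genes shown, all 3 RSF1delUAB points lie on the same side of all 3 control points, as the naming rule required. IL1A in RSF1delUAB lies between 3.08 and 3.99 CPM against 175 to 188 CPM in control.

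Secreted cytokines fell more often than they rose. Of 32 tested interleukins and haematopoietic cytokines 8 rose (25%) and 15 fell (46.9%), with a median log2 fold change of -0.40. The alarmin IL1A stood at 175, 179 and 188 CPM in control and 3.99, 3.35 and 3.08 CPM in RSF1delUAB, and IL1B at 57.5, 56.7 and 55.8 and 2.71, 2.95 and 1.60 CPM. KITLG, the ligand of the KIT receptor, fell from 42.1 ± 1.01 to 13.2 ± 0.930 CPM. IL32 rose from 6.36 ± 0.780 to 14.5 ± 2.74 CPM. Few chemokines were expressed: 8 of 41 could be tested, 4 of which fell and 1 rose. CXCL8, which attracts neutrophils, went from 59.2, 58.3 and 67.5 to 18.1, 16.7 and 19.6 CPM. The mucosal chemokine CCL28 went from 0.0215 ± 0.0373 to 5.79 ± 0.525 CPM, a ratio of 263 (95% counting interval 46.9 to 10440.0). Chemokines that rose numbered 2 without any 1 library other than RSF1delUAB replicates 1 and 2, when 9 chemokines entered the test.

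Growth factors also leaned to the falling side. Of 39 tested FGF, PDGF, VEGF, EGF-family and neurotrophic ligands 12 rose and 20 fell (51.3%), with 16 of the falls at least 2-fold. FGF2, a growth factor released without a signal peptide, stood at 544, 507 and 565 CPM in control and 137, 138 and 143 CPM in RSF1delUAB. ARTN, a ligand of the RET receptor complex, fell from 44.8 ± 2.35 to 5.80 ± 0.746 CPM, the EGFR ligand BTC from 12.1 ± 0.996 to 3.55 ± 0.593 CPM, and ANGPTL4, an inhibitor of lipoprotein lipase, from 10.5 ± 0.358 to 0.597 ± 0.420 CPM. PROS1, a vitamin K-dependent ligand of TAM receptors, rose from 32.4 ± 0.520 to 116 ± 1.88 CPM.

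Ligands of the TGF-beta family leaned the other way, with 13 rises (68.4%) and 3 falls of 19. GDF15, a stress-induced ligand, rose from 9.07, 9.56 and 9.30 to 117, 105 and 114 CPM and INHBA, the activin A chain, from 2.73 ± 0.785 to 18.7 ± 0.443 CPM, while BMP2 fell from 25.8 ± 1.13 to 7.52 ± 0.594 CPM. Wnt ligands split, 6 risen and 4 fallen of 11. WNT9A fell from 88 ± 1.53 to 18.9 ± 0.385 CPM and WNT5A, a ligand of non-canonical signalling, rose from 6.86 ± 1.81 to 18.6 ± 1.52 CPM. Secreted antagonists and binding proteins counted 13 rises and 7 falls of 22, with a median log2 fold change of 1.42. IGFBP3, the main carrier of insulin-like growth factors, rose from 37.9, 37.6 and 34.2 to 374, 361 and 391 CPM. The Wnt antagonist DKK1 fell from 38.2, 32 and 42 to 1.22, 1.68 and 1.05 CPM, and its groups were as clearly apart.

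Matrix genes leaned upward, while the laminin chains LAMA3 and LAMB3 fell as given above. Of 49 matricellular proteins, fibulins and small proteoglycans 33 rose (67.3%) and 12 fell, with a median log2 fold change of 1.44. CTHRC1, a secreted protein induced in matrix remodelling, went from 1.46, 0.398 and 0.388 to 144, 134 and 139 CPM, and FBLN2, a fibulin of elastic fibres and basement membranes, from 0.860, 0.929 and 0.840 to 110.1, 115 and 113 CPM. DCN, the collagen-binding proteoglycan decorin, went from 0.0662 ± 0.0662 to 8.86 ± 1.503 CPM, a ratio of 134 (95% counting interval 45.5 to 651). FBLN2 and DCN are also fibroblast markers, whose summed levels are given above. Collagen genes counted 15 rises and 7 falls of 23 tested. The collagen VI chains COL6A1 and COL6A2 rose from 6.65 ± 1.17 to 59.2 ± 3.48 CPM and from 37.7 ± 3.52 to 281 ± 23.8 CPM. COL4A4, a basement membrane chain, fell from 14.3 ± 1.75 to 4.84 ± 0.350 CPM. Among laminins, nidogens and fibrillins 10 rose and 6 fell of 20. Perlecan, HSPG2, a basement membrane proteoglycan, stood at 2.65, 3.58 and 2.71 CPM in control and 304, 302 and 350.1 CPM in RSF1delUAB.

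Matrix proteases counted more rises than falls. Of 46 metalloproteinases and their TIMP inhibitors 23 rose and 9 fell. MMP7, matrilysin, went from 2.51, 3.38 and 4.33 to 244, 248 and 253 CPM. TIMP3, an inhibitor bound to matrix, had 0 counts in control and 13.7 ± 0.383 CPM in RSF1delUAB, at least 209-fold higher. It lies on 22q. ADAMTS1 fell from 112 ± 3.79 to 40.3 ± 4.75 CPM and ADAMTS3, a procollagen peptidase, from 21.9 ± 2.23 to 0.644 ± 0.276 CPM. Of surface and secreted serine and cysteine proteases 20 rose and 7 fell among 33. The plasminogen activator PLAT rose from 39.2 ± 1.13 to 135 ± 6.31 CPM and cathepsin S, CTSS, fell from 45.8 ± 4.14 to 9.45 ± 0.805 CPM. Protease inhibitors counted 13 rises and 9 falls of 23. SERPINA1, which inhibits neutrophil elastase, rose from 0.962 ± 0.265 to 44.6 ± 2.57 CPM and the collagen chaperone SERPINH1 from 68.9 ± 2.78 to 327 ± 17.7 CPM. SERPINB5, SERPINB6 and SERPINB8, intracellular clade B serpins, fell by 9.85, 1.38 and 1.92 on the log2 scale.

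Complement and coagulation genes rose in 18 of 29 tested cases (62.1%) and fell in 7. Beside C3, the early components C1R and C2 rose from 4.23 ± 0.823 to 52.5 ± 2.77 CPM and from 0.285 ± 0.0407 to 16.7 ± 0.452 CPM, and so did the C1 inhibitor SERPING1, from 0.528 ± 0.292 to 13.8 ± 0.530 CPM. Of acute-phase, antimicrobial and S100 genes 7 rose and 9 fell among 17. The secretory protease inhibitor SLPI rose from 68 ± 5.67 to 142 ± 5.89 CPM. Among S100 genes on 1q, S100A2, S100A3 and S100A14 fell. S100A2 went from 629.8, 698 and 717 to 48.9, 44 and 44.7 CPM, S100A3 from 97.9 ± 3.71 to 8.63 ± 1.39 CPM and S100A14 from 8.75 ± 1.42 to 0.651 ± 0.287 CPM. The median of 1q was -0.53, and with it removed S100A2 still differed by -3.36 log2 units.

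Among regulators, subunits of AP-1 moved in different directions. AP-1 is a dimer of FOS and JUN proteins that binds the letters TGANTCA. FOSL1, a FOS-family subunit abundant in mesenchymal carcinoma lines, stood at 169, 175 and 164 CPM in control and 26.3, 25 and 28.8 CPM in RSF1delUAB. FOSL2 went from 175, 168 and 174 to 489, 490.3 and 484 CPM and FOS from 6.62, 5.57 and 6.40 to 44, 45.2 and 43.1 CPM, so that of these 3 genes 1 fell and 2 rose, with no overlap between groups. CEBPD, a factor of the acute-phase response, rose from 45.8 ± 1.16 to 187 ± 13.2 CPM. Of 39 tested AP-1, ATF and CEBP factors 16 rose and 13 fell.

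The letters TGANTCA were looked for on both strands in the 250 bases before the start that RefSeq gives for each gene, from promoters on GRCh38.p14, which matched 11721 tested genes by symbol. They stood in 4.23% of these windows, in 4.83% of genes that rose at least 2-fold and in 6.57% of genes that fell at least 2-fold. Of 153 genes named in the text that have a window, 20 held a match. Of these 11 fell (LAMA3, F3, RAET1L, IL1A, CXCL8, SERPINB5, SERPINB8, S100A2, S100A3, HDAC9 and LINC01443), 8 rose (CLDN2, CLDN4, MMP7, RUNX2, ARRDC4, GSTP1, BBC3 and LINC00494), and ERBB2 did not pass. The windows of 5 of them, picked after their values were seen, are shown as examples. They are printed 5′ to 3′ on the gene's strand, with matches in capitals. The LAMA3 window precedes a start inside the gene, which the count table places at 23689453 to 23956222. A match is a string of letters and not a shown binding site.
LAMA3, chr18:23872770-23873019, plus strand: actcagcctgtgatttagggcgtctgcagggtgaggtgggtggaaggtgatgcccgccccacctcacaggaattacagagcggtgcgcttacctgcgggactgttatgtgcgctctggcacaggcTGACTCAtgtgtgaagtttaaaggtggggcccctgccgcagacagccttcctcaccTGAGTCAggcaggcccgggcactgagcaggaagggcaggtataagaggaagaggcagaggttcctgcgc
F3, chr1:94541760-94542009, minus strand: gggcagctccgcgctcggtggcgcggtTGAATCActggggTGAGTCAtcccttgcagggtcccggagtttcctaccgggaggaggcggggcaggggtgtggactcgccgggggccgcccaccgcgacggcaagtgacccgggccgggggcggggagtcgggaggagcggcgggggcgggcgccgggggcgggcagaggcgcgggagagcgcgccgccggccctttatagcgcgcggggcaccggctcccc
IL1A, chr2:112784494-112784743, minus strand: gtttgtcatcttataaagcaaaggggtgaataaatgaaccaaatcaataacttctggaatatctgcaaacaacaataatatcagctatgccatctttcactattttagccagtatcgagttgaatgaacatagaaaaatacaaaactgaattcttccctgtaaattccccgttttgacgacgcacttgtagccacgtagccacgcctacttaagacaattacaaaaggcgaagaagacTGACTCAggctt
SERPINB5, chr18:63476708-63476957, plus strand: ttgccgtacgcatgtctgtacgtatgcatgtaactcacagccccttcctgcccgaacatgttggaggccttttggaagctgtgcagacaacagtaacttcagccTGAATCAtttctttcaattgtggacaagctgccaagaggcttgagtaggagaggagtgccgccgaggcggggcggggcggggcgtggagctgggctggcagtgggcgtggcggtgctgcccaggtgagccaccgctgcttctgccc
MMP7, chr11:102530748-102530997, minus strand: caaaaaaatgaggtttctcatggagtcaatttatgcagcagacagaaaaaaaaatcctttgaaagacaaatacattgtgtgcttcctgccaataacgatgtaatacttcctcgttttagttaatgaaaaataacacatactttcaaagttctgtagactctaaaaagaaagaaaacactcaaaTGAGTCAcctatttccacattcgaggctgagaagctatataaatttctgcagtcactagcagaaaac

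LAMA3 and F3 each held 2 matches, and IL1A, SERPINB5 and MMP7 1 each. The windows also differed in CG pairs, the sites of DNA methylation, with 34 in F3, 13 in SERPINB5, 9 in LAMA3, 7 in IL1A and 3 in MMP7, against a median of 21 over all matched genes.

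Helix-loop-helix and MYC-network factors counted 23 rises and 21 falls of 54. The related circadian factors CLOCK and NPAS2, which share a dimer partner, went in opposite directions: CLOCK fell from 133, 129 and 144 to 40.7, 46.6 and 42.9 CPM and NPAS2 rose from 9.53, 12.1 and 11.6 to 60.7, 58 and 58.3 CPM. CLOCK lies on 4q, and its log2 fold change was -0.91 with the arm median removed. HES1, a repressor downstream of Notch, rose from 7.51 ± 1.64 to 51.3 ± 1.14 CPM and the related HEY1 fell from 39.6 ± 1.59 to 8.75 ± 0.489 CPM. ID2, an inhibitor of helix-loop-helix dimers, rose from 16 ± 1.12 to 61.3 ± 1.55 CPM, and ARNT2, a dimer partner of PAS-domain factors, from 0.264 ± 0.117 to 25.9 ± 1.72 CPM.

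Epithelial and mesenchymal regulators moved in mixed directions. In the EMT list 7 of 15 tested members rose and 7 fell. ZEB2 and SNAI1, repressors of epithelial genes, rose from 4.81 ± 1.35 to 15.8 ± 0.828 CPM and from 1.16 ± 0.337 to 5.39 ± 0.391 CPM, and N-cadherin, CDH2, from 45.6 ± 3.51 to 129.6 ± 3.01 CPM. SNAI2 fell from 117 ± 2.75 to 49.9 ± 0.599 CPM. OVOL2, a repressor of mesenchymal genes, fell from 5.66 ± 1.18 to 0.315 ± 0.265 CPM, and EHF, an epithelial ETS factor, rose from 2.25, 2.39 and 2.33 to 35.7, 43.8 and 36.7 CPM. Over the whole ETS list, EHF included, 8 of 20 rose and 10 fell, 2 of them at least 2-fold, and 6 fell with arm medians removed.

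KLF and SP genes counted 11 falls (57.9%), 3 of them at least 2-fold, and 5 rises among 19 tested. With arm medians removed 9 fell and 7 rose. KLF5, a factor of proliferating epithelium, went from 146, 149 and 154 to 58.6, 57.1 and 64.9 CPM and KLF4 from 27.8 ± 1.01 to 7.58 ± 0.498 CPM. With arm medians removed their log2 fold changes were -0.62 and -1.82. In the SOX family 3 of 9 rose and 4 fell. SOX4, a progenitor factor, rose from 54.1, 59.6 and 56.9 to 199, 199 and 213 CPM. In the forkhead family 11 rose and 11 fell of 30. FOXO1, a factor restrained by insulin signalling, rose from 13.8 ± 2.16 to 53.4 ± 1.07 CPM, and FOXQ1, FOXC1 and FOXF2, which lie in a cluster on 6p, fell by 2.87, 1.59 and 1.03 on the log2 scale. Of GATA, RUNX and TEAD factors with their co-activators 5 rose and 7 fell of 15. RUNX2, a factor of bone and invasion, rose from 18.3 ± 1.92 to 51.7 ± 0.716 CPM and RUNX1 fell from 88.2 ± 1.90 to 41.4 ± 2.39 CPM. Nuclear receptors counted 17 rises and 11 falls of 35. The oxysterol receptor NR1H3 rose from 3.13 ± 0.386 to 17.8 ± 2.08 CPM and the adipogenic receptor PPARG fell from 79.8 ± 1.01 to 37.1 ± 3.18 CPM.

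HOX cluster genes, classic Polycomb targets, showed 10 rises and 1 fall of 23 tested, with a median log2 fold change of 0.05. The falls numbered 5 with arm medians removed, 3 without full-length RSF1 replicate 1 and 2 without control replicate 3. They were 3 of 22 tested when only the 6 libraries compared were fitted. HOXB9 rose from 22.2, 23.2 and 24.9 to 75.3, 82.1 and 83.5 CPM. Of the other homeobox, PAX, TBX and POU genes 33 of 67 rose (49.3%) and 18 fell. ZFHX4, a large zinc finger homeodomain factor, rose from 3.02 ± 0.353 to 70.3 ± 9.28 CPM, while the developmental homeobox factors MSX1 and LHX1 fell from 78.8 ± 5.21 to 16.1 ± 2.24 CPM and from 118 ± 1.30 to 50.1 ± 3.35 CPM.

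Numbered zinc finger genes rose in 222 of 483 tested cases (46%) and fell in 87. The rises lay mostly on 19q, where 121 of 167 rose. On arms outside chromosome 19, 69 of 239 rose and 68 fell. With arm medians removed the number that rose was 138. ZNF486 on 19p stood at 15.7, 15.9 and 15.8 CPM in control and 223, 230.4 and 237 CPM in RSF1delUAB.

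Of the chromatin lists, those of methylation enzymes and of Polycomb and H2A deubiquitinase genes counted more falls than rises. Among DNA and histone methylation enzymes 28 of 56 fell (50%) and 10 rose, though 7 falls reached 2-fold. With arm medians removed 26 fell and 15 rose. DOT1L, which methylates H3K79, fell from 142, 136 and 132 to 59.1, 53.8 and 59.7 CPM, the H3K36 methyltransferase NSD2 from 343 ± 4.97 to 153 ± 4.82 CPM and the demethylase PHF8 from 82 ± 6.45 to 32.2 ± 0.712 CPM. Histone acetylation enzymes and bromodomain readers split, 12 risen and 13 fallen of 34. The deacetylase HDAC9 went from 21 ± 0.852 to 7.04 ± 0.492 CPM and the acetyltransferase KAT2B from 45.6 ± 4.89 to 17.3 ± 1.65 CPM. The Polycomb and H2A deubiquitinase list, whose members write and remove the mark that the deleted region reads, counted 10 rises and 24 falls (53.3%) of 45. The rises numbered 6 with arm medians removed. PCGF2, a Polycomb repressive complex 1 subunit, rose from 20.1 ± 0.333 to 45.3 ± 2.24 CPM, PCGF3 of a variant complex fell from 68.1 ± 2.35 to 26.8 ± 2.07 CPM, and JARID2, a cofactor of Polycomb repressive complex 2, from 48.5 ± 4.08 to 22.7 ± 1.11 CPM. Remodellers of the ISWI, CHD and SWI/SNF families counted 13 rises and 13 falls of 41, close to the background. SMARCD3 rose from 0.813 ± 0.274 to 6.64 ± 1.03 CPM and PBRM1 fell from 114 ± 3.95 to 53.9 ± 1.97 CPM. With arm medians removed NSD2, KAT2B, PCGF3 and PBRM1 stood at -0.46, -0.85, -0.64 and -0.53 log2 units and PCGF2 at 0.93, all under 2-fold. DOT1L, PHF8, HDAC9, JARID2 and SMARCD3 stayed past 2-fold.

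Feedback regulators of growth factor signalling fell in 16 of 34 tested cases and rose in 10. DUSP7, a phosphatase of ERK, fell from 91.1 ± 2.86 to 24.3 ± 1.19 CPM and the EGFR inhibitor ERRFI1 from 100.4 ± 3.76 to 27.8 ± 0.937 CPM. In the STAT, IRF, NF-kappaB and SMAD list 15 rose and 18 fell of 41. NFKB1 and SMAD3 fell from 130.3 ± 6.41 to 62 ± 3.74 CPM and from 111 ± 3.00 to 50.4 ± 3.90 CPM. BCL3, a nuclear co-factor of NF-kappaB, rose from 30.2 ± 3.93 to 87.2 ± 2.62 CPM and SOCS3, an inhibitor of cytokine signalling, from 10.4 ± 1.25 to 30.8 ± 2.48 CPM.

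Interleukin-1 signalling genes fell in 15 of 25 cases (60%) and rose in 8: both ligands and the kinase IRAK2 (35 ± 1.95 to 13.3 ± 0.294 CPM) fell while the receptor IL1R1 rose. Interferon-stimulated genes rose in 19 of 44 cases and fell in 9. IFI27 went from 1.06, 1.33 and 1.49 to 41.1, 35.5 and 40.2 CPM and the antiviral TRIM22 from 3.26 ± 0.781 to 24.2 ± 1.57 CPM. IFITM1, IFITM2 and IFITM3, which restrict virus entry, rose by 7.08, 2.77 and 2.68 log2 units, with the limit that IFITM genes share reads. Antigen presentation genes rose in 16 of 23 (69.6%). HLA-B went from 164, 163 and 162 to 653, 615 and 624 CPM, the immunoproteasome subunit PSMB9 from 18.3 ± 0.632 to 69.3 ± 3.64 CPM and the peptide transporter TAP1 from 51.8 ± 1.68 to 131 ± 6.23 CPM. HLA genes are near-identical in part and their counts are uncertain.

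Metabolic genes changed at several single steps. GLUL, glutamine synthetase, went from 0, 0.0664 and 0 CPM in control to 29.9, 30.0 and 32.6 CPM in RSF1delUAB, a ratio of 1405 (95% counting interval 252 to 55530.0). BCAT1, which transaminates branched-chain amino acids, went from 0.794, 0.464 and 0.517 to 119, 120.4 and 119 CPM, and PHGDH, the entry enzyme of serine synthesis, from 27.2 ± 1.88 to 111 ± 3.57 CPM. All 3 genes had groups that lay apart, as the naming rule required. The list of serine, one-carbon, asparagine and proline synthesis counted 9 rises and 11 falls of 25, near the background. Of glucose genes 13 rose and 17 fell of 39. The aldolase ALDOC rose from 1.03 ± 0.449 to 66.1 ± 2.72 CPM and PDK4, which inhibits pyruvate dehydrogenase, fell from 23.4 ± 1.85 to 6.14 ± 0.740 CPM.

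ARRDC4 is an alpha-arrestin whose gene, like its relative TXNIP, answers to glucose through factors that bind sites related to the letters CACGTG. It had 0 counts in the control libraries and 113, 119 and 110.3 CPM in RSF1delUAB, at least 1736-fold higher. TXNIP, chosen after its values were seen, went from 61.5, 59 and 58.1 to 303, 307 and 311 CPM (log2 fold change 2.37). The window before ARRDC4 is shown for its 1 match to CACGTG, in capitals. Such a match stood in 8.57% of windows of tested genes, in 7.84% of genes that rose at least 2-fold and in 8.08% of genes that fell at least 2-fold. The window also holds the match to TGANTCA counted above, which is left in lower case here.
ARRDC4, chr15:97960453-97960702, plus strand: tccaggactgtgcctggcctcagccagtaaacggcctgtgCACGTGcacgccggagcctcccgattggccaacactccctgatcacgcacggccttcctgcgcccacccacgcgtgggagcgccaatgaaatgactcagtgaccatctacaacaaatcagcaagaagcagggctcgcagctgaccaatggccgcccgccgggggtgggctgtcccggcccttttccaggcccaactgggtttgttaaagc

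Redox enzymes counted more falls than rises. Of NRF2 and glutathione genes 18 of 34 fell (52.9%) and 7 rose, or 11 with arm medians removed. TXNRD1, thioredoxin reductase, went from 759, 757 and 770.4 to 217, 206 and 204 CPM, alongside the fall of SLC7A11 above, while the glutathione transferase GSTP1 rose from 133 ± 6.66 to 397 ± 13.4 CPM. Lipid genes counted 17 rises and 11 falls of 37, with 7 falls once arm medians were removed. The desaturases FADS1 and FADS2, neighbours on 11q, rose from 131 ± 3.15 to 567 ± 12.2 CPM and from 57.8 ± 1.47 to 140.3 ± 7.27 CPM. In the retinoid list 12 of 20 rose and 5 fell. Transglutaminase TGM2 rose from 137 ± 4.86 to 508 ± 18.6 CPM. Eicosanoid and lysophospholipid enzymes split, 8 risen and 10 fallen of 21. The prostaglandin synthase PTGES and the phospholipase PLA2G4A fell from 36.1 ± 2.18 to 2.72 ± 0.536 CPM and from 7.64 ± 0.683 to 0.317 ± 0.225 CPM. The leukotriene enzyme ALOX5 rose from 4.93 ± 1.15 to 21.5 ± 0.287 CPM. Lysosomal genes leaned upward, with 20 rises and 12 falls of 38, among them the glucosidase GAA, which rose from 84.7 ± 3.53 to 227 ± 7.40 CPM.

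Biosynthetic and cell cycle lists counted more falls than rises. Ribosome biogenesis genes fell in 25 of 34 cases (73.5%), with a median log2 fold change of -0.59, and rose in 3, or 1 with arm medians removed. LYAR, a nucleolar regulator of ribosomal RNA processing, stood at 112, 101 and 108 CPM in control and 18.5, 18.1 and 16 CPM in RSF1delUAB. LYAR lies on 4p, and its log2 fold change was -1.90 with the arm median removed. Cytosolic aminoacyl-tRNA synthetases fell in 14 of 20 cases and rose in 4 (2 with arm medians removed). IARS1, for isoleucine, went from 431, 409 and 414 to 180.4, 187 and 190.3 CPM and GARS1, for glycine, from 135 ± 3.23 to 63 ± 0.910 CPM. DNA replication genes fell in 17 of 33 cases and rose in 9, or 2 with arm medians removed. Mitosis genes fell in 16 of 28 and rose in 5 (3 with arm medians removed). The clamp loader subunit RFC3 fell from 45.2 ± 0.571 to 15.9 ± 1.19 CPM and the checkpoint protein MAD2L1 from 149 ± 7.69 to 57.7 ± 1.07 CPM, on 13q and 4q. Of proteasome subunits 18 of 37 fell and 8 rose, or 29 and 2 with arm medians removed. Targets of p53 split, 11 risen and 12 fallen of 26. The apoptosis activator BBC3 rose from 0.719 ± 0.383 to 6.67 ± 1.05 CPM and its relative PMAIP1 fell from 219 ± 8.54 to 74 ± 6.44 CPM.

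Full-length RSF1 was set beside the deleted protein to see which of these levels differed between their libraries. Both are compared with the same 3 control libraries, so each gene's own values are given, and the test is RSF1delUAB against RSF1 in the same fit. That test called 6468 of 16735 genes (38.6%), 20.2% higher and 18.5% lower in RSF1delUAB. Against control RSF1 libraries were higher for 34.3% and lower for 32.9% of genes. RSF1 itself differed by -0.56 log2 units between RSF1delUAB and RSF1 libraries (edgeR adjusted p = 5.07e-06), so the groups differ in total RSF1 counts as well as in the region. These counts include endogenous reads and are not corrected for length, so the level of the construct cannot be read from them. ERBB2 stood at 2493 ± 340 CPM in RSF1 libraries, and RSF1delUAB differed from them by 1.60 log2 units (edgeR adjusted p = 8.78e-13). PPP1R1B, also on 17q, stood at 87.7 ± 5.70 CPM with RSF1 (log2 difference 2.15). Whether differences between these groups come from the region or from other differences between the lines was not tested.

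Several surface and matrix genes were at like levels with either protein. ITGB3 stood at 84.3, 90.5 and 94.7 CPM in the RSF1 libraries, and RSF1delUAB differed from them by 0.01 log2 units (95% interval -0.14 to 0.16). For COL6A1 the RSF1 libraries held 60.5 ± 3.64 CPM and the difference was -0.03 (-0.21 to 0.15), for BCAM 95.5 ± 9.56 CPM and -0.13 (-0.29 to 0.04), and for LPAR1 29 ± 1.76 CPM and 0.19 (-0.03 to 0.40). These intervals exclude differences near the size of the change from control, and the test missed its threshold for each. IL1R1 (0.11, -0.06 to 0.27), TNFSF10 (-0.10, -0.30 to 0.11) and C1R (0.03, -0.16 to 0.22) were of the same kind. On the falling side so were MST1R (-0.05, -0.26 to 0.17), ITGA5 (0.08, -0.08 to 0.24), PLEC (0.00, -0.21 to 0.22), S100A2 (-0.16, -0.37 to 0.06), CLOCK (0.04, -0.19 to 0.27) and DOT1L (0.10, -0.08 to 0.28). A missed threshold does not show that levels were equal.

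The cytokine genes IL1A, IL1B and CXCL8 differed between the proteins. IL1A stood at 90.6, 88.6 and 85.1 CPM and IL1B at 49, 48.9 and 43.4 CPM in RSF1 libraries, so that RSF1delUAB differed from RSF1 by -4.65 and -4.27 log2 units (edgeR adjusted p = 1.82e-17 and 2.87e-15). CXCL8 stood at 383, 355 and 257 CPM with RSF1, above control, whereas with RSF1delUAB it lay below control. Each of these 3 genes kept its 3 groups apart. FN1 and IGFBP3 rose with the deleted protein but stood higher with the full-length protein, at 8073 ± 1986 and 1335 ± 4.07 CPM. The reverse held for MMP1 at 110.2 ± 9.17 CPM, MMP7 at 23.9 ± 4.49 CPM, CD24 at 144 ± 13.7 CPM and FOLR1 at 2.63 ± 0.316 CPM with RSF1, all lower than with RSF1delUAB (log2 differences 3.12, 3.38, 1.90 and 2.94). FOS rose with RSF1delUAB and fell with RSF1, whose libraries stood at 5.15, 3.30 and 4.59 CPM against 6.62, 5.57 and 6.40 CPM in control (log2 fold change of RSF1 against control -0.51, edgeR adjusted p = 0.00627). The falls of F3, FOSL1 and LAMB3 went further with RSF1delUAB: RSF1 libraries held 218 ± 8.03 CPM of F3, 58.4 ± 4.88 CPM of FOSL1 and 316 ± 18 CPM of LAMB3, and RSF1delUAB differed from them by -1.82, -1.13 and -1.50 log2 units (edgeR adjusted p = 7.71e-15, 7.97e-10 and 5.43e-13). ARRDC4 and BCAT1 stood at 32.8 ± 1.80 and 301 ± 21.8 CPM with RSF1, HDAC9 at 18.3 ± 0.498 CPM and HLA-B at 202 ± 28.5 CPM (log2 differences of RSF1delUAB from RSF1 1.80, -1.34, -1.38 and 1.64). ITGB4 fell with both, further with RSF1, to 4.49 ± 0.672 CPM (3.06).

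**Figure D4:**
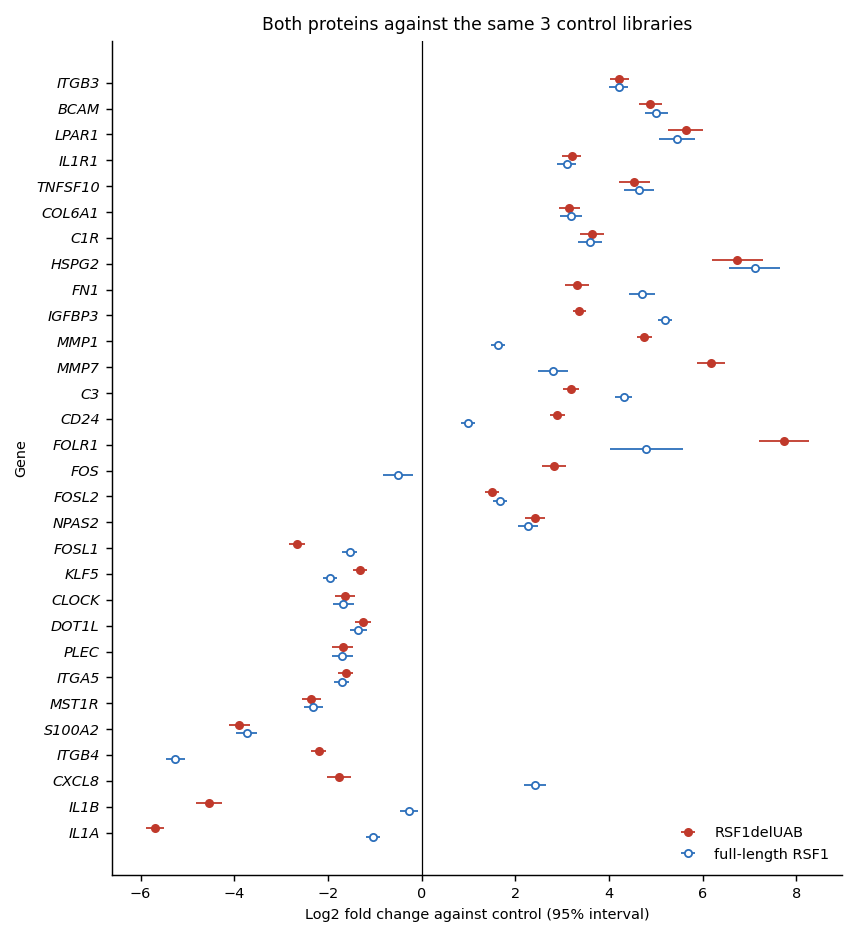
Log2 fold change against control with its 95% interval for 30 genes named in the text, in RSF1delUAB (filled) and full-length RSF1 (open) libraries, n = 3 per group; both share the same 3 control libraries. ITGB3 overlaps almost fully, while IL1A, IL1B, CXCL8, MMP1 and FOS lie far apart.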

How the data were processed

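The members and gene lists were chosen with earlier results of these data known. The deposited values are the authors' raw read counts for each gene, with no scaling. The submitters' processing notes name FastQC, STAR 2.7.9a and Subread, and 3 builds (GRCh38, hg38, GRCm38), of which GRCh38 is taken for the human coordinates printed; the annotation release and any use of strand are not stated in the labels or notes, so overlapping and antisense genes are uncertain. 1 record split over 3 lines (ANK2) was rejoined. Of 62703 genes, those passing filterByExpr (minimum count 10) were fitted with edgeR 4.0.16 in R 4.3.3: TMM scaling, quasi-likelihood test, 9 SKOV3 libraries in 1 fit, 6 residual degrees of freedom, biological coefficient of variation 0.0734, Benjamini-Hochberg adjustment over all tested genes, threshold 0.05. The standard error (SE) of a log2 fold change was taken as its size divided by the square root of the F statistic, and intervals are 95%. Named genes are RSF1, the 10 largest rises and 10 largest falls in mean CPM, and up to 4 risen and 4 fallen members per list with the largest log2 fold change, all past the threshold, at least 2-fold, with groups that do not overlap and, in lists, at least 5 CPM in the higher group; the text names a part of them. Markers, SMARCA5 and TXNIP were added outside this rule. No replicate pair was a duplicate deposit: within groups, chi-square over its degrees of freedom ran from 2.27 to 16.4. Full-length RSF1 replicate 1 stood apart, at 14.4 with replicate 2 and 16.4 with replicate 3, while no other pair exceeded 3.94. On simulated data for RSF1delUAB against control (16226 genes, 200 changed) the fit recovered 74.6%, 95.5% and 98.5% of genes changed 1.5-, 2- and 4-fold, and 4.79% of calls were unchanged genes. The simulation changed far fewer genes than the data and shifted no arm. It therefore did not test scaling or false calls under changes as wide as these. Alternatives were DESeq2 1.42.0, limma 3.58.1 (voom), other scalings and filters, a fold threshold, a block, an offset per arm and each library left out.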

Additional observations from a re-analysis of the deposited data

How the results depend on the processing

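The counts of genes that rose or fell stayed within 1.5 times their value under other scalings, DESeq2, limma-voom, other count filters, the 6-library fit, the arm offset and with any 1 library left out, with 1 exception. A test against a fold of 1.5 left 3009 genes higher and 2179 lower against control, and 705 higher and 639 lower against RSF1, being stricter by construction. With any 1 of the 9 libraries left out, genes higher than control numbered 5445 to 6175 and genes lower 5010 to 5866. Same-numbered libraries were not treated as paired, since no comparison had all its pairs correlated above 0.1: deviations from the group means correlated at -0.095 to -0.001 between RSF1delUAB and control, 0.011 to 0.187 between RSF1delUAB and RSF1 and -0.131 to -0.077 between RSF1 and control. With the replicate number as a block, 5687 genes were higher and 5320 lower than control, and 3321 higher and 3012 lower than RSF1. Of 199 named genes 196 kept direction and call in all of the 19 alternatives that tested them, the exceptions being NR3C2 and SMARCA5 with the arm offset and ERBB2, which 6 alternatives called lower. Of 138 list counts, 83 moved by more than 1.5 times with the fold threshold and 28 with a filter that removed genes of low level. Genes below about 1 CPM rest on few counts, and their folds depend on the floor or interval used.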

Other observations

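Long intergenic RNAs were among the transcripts that differed from control most completely. Of 2264 genes named LINC, 315 could be tested, of which 130 rose (41.3%) and 68 fell. LINC00494 had 0 counts in control and 8.06 ± 0.0816 CPM in RSF1delUAB, at least 123-fold higher, while LINC02241 stood at 9.36 ± 1.47 CPM in control and had no count in RSF1delUAB, where it was at least 164-fold lower. LINC01127 rose from 0.397 ± 0.290 to 12.6 ± 0.442 CPM. LINC01443 went from 6.91 ± 1.07 to 0.0370 ± 0.0321 CPM, a control over RSF1delUAB ratio of 181 (95% counting interval 49.6 to 1498).

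Genes that were near silent in 1 group were looked at for the CG pairs of their promoter windows. Of 48 tested genes with 0 to 3 counts in control and at least 5 CPM in RSF1delUAB, 30 had a window, with a median of 19 CG pairs, and 56.7% held 10 or more. Over all matched genes the median was 21 and that share 82.5%. Of 13 genes with the opposite pattern 8 had a window, 4 of them with 10 or more CG pairs. These genes were chosen by their levels, so the shares are a description with no test.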
